A study of Mus musculus with 4 samples.

Results

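The genes described here are 8 developmental genes, Eya1, Eya2, Eya4, Coch, Irx3, Irx5, Alx1 and Pax1, read by 15 of the 45037 non-control probe sets of a mouse Affymetrix array. Every probe set was taken that the platform annotation gives to one of these genes alone, and 18193 genes were covered in this way in all. The genes were selected on the embryoid body values, since several of them stood among the genes with the highest knockout minus control differences there, so the embryoid body contrast is a description and supports nothing further.

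There were 4 groups with 1 array each, and no replicates. Control cells, labelled F/F, and Snai1 knockout cells were mouse embryonic stem cells. Embryoid bodies, which are aggregates of stem cells that differentiate without added direction, were started as hanging drops and collected at 5 days. Teratomas, tumours that hold tissues of several germ layers, grew under the skin of male nude mice from the same kinds of cell and were sampled at week 6. Host blood cells, vessels and stroma remain in such tumours. Snai1 is a zinc-finger repressor known for gastrulation and epithelial-mesenchymal transition. The sources used here do not say how Snai1 was removed, whether each line was 1 clone or whether tumours were pooled.

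Placodes are thickenings of the embryonic head ectoderm that give rise to the inner ear, nose, lens and cranial sensory neurons. Eya proteins are transcriptional coactivators with a phosphatase domain, and work with proteins such as Six4 and Dach2 in placodes, branchial arches, kidney and muscle. Iroquois (Irx) homeobox genes pattern the neural plate, ectoderm and heart. Head mesenchyme, from neural crest and cranial mesoderm, builds the face and skull and expresses Alx genes, while Pax1 marks pharyngeal pouch endoderm and the sclerotome of the somites.

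The values are RMA log2 expression values per probe set. Because these have no true zero, the median of the non-control probe sets of each array served as a floor, at 4.71 (control) and 4.73 (knockout) for the embryoid body arrays and 5.08 (control) and 5.04 (knockout) for the teratoma arrays. A value below its floor was set to the floor, and the difference is then a bound, written as "at least". A gene with both arrays below the floor has no difference. At least 2-fold means a log2 difference of 1 or more in size. Snai1 itself read 4.78 in control and 3.45 in knockout embryoid bodies, and 3.59 (control) and 3.44 (knockout) in the teratomas, so its label could be checked only weakly and only in embryoid bodies. The 3' minus 5' log2 signal of Gapdh, a measure of RNA integrity, was 0.10 to 0.17 on the embryoid body arrays, 0.65 for the control teratoma and 0.40 for its knockout. For beta-actin it was larger, at 0.38 (control) and 0.31 (knockout) in embryoid bodies and 1.03 (control) and 0.85 (knockout) in teratomas.

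Promoter sequence is shown as background, because Snai1 is a repressor that binds E-box letters. Whether Snai1 acts on these genes was not tested. RefSeq promoter windows (GRCm38.p6, 250 bases before to 50 after the start) were given for 4 of the 8 genes, Coch, Eya4, Irx3 and Pax1. The letters CACCTG and its reverse complement CAGGTG, the E-box that Snail proteins bind, were in 0 of these 4 genes' windows and in 20.2% of all 32851 windows. The shorter letters CACCT or AGGTG, which the longer ones contain, were in 1 of the 4, Irx3, and in 51.9% of all windows. That match lay 133 bases before the Irx3 start. A missing match says only that these letters are not in this window. The 250 bases before the start are given 5′ to 3′ for Irx3, as the gene with a match, and for Coch and Eya4, as genes with the largest embryoid body differences. Capitals mark the AGGTG letters.
Irx3 (chr8:91801655-91801904, minus strand): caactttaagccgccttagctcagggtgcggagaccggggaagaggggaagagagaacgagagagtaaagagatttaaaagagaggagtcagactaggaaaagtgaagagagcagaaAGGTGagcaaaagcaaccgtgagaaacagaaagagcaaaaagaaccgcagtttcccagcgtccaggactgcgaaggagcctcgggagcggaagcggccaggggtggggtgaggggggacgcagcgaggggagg
Coch (chr12:51593091-51593340, plus strand): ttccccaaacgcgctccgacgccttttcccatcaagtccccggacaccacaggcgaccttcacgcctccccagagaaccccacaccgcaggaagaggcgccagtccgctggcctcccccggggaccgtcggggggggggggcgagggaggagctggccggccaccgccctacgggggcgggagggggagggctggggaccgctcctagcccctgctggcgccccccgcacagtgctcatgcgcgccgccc
Eya4 (chr10:23349944-23350193, minus strand): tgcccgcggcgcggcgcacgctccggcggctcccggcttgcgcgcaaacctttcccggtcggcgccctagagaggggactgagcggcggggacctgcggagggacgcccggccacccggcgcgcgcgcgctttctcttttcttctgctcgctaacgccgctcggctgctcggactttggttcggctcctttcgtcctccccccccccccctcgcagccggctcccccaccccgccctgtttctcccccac

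In day 5 embryoid bodies all 8 genes read at least 2-fold higher in the knockout, with differences from 1.04 for Irx3 to 2.60 for Coch. The count follows from how the genes were chosen; of all 12282 genes measured, 2.18% were at least 2-fold higher. In week 6 teratomas the order turned for most of them: 6 of the 7 measured genes read lower in the knockout and 1 read higher. Of these 7, 6 differed by under 2-fold with or without the floor, and Pax1 was bounded at 1.65-fold. The members' median log2 difference was 2.34 for embryoid bodies and -0.51 for teratomas, beside 0.03 and 0.06 over all measured genes.

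**Figure D1:**
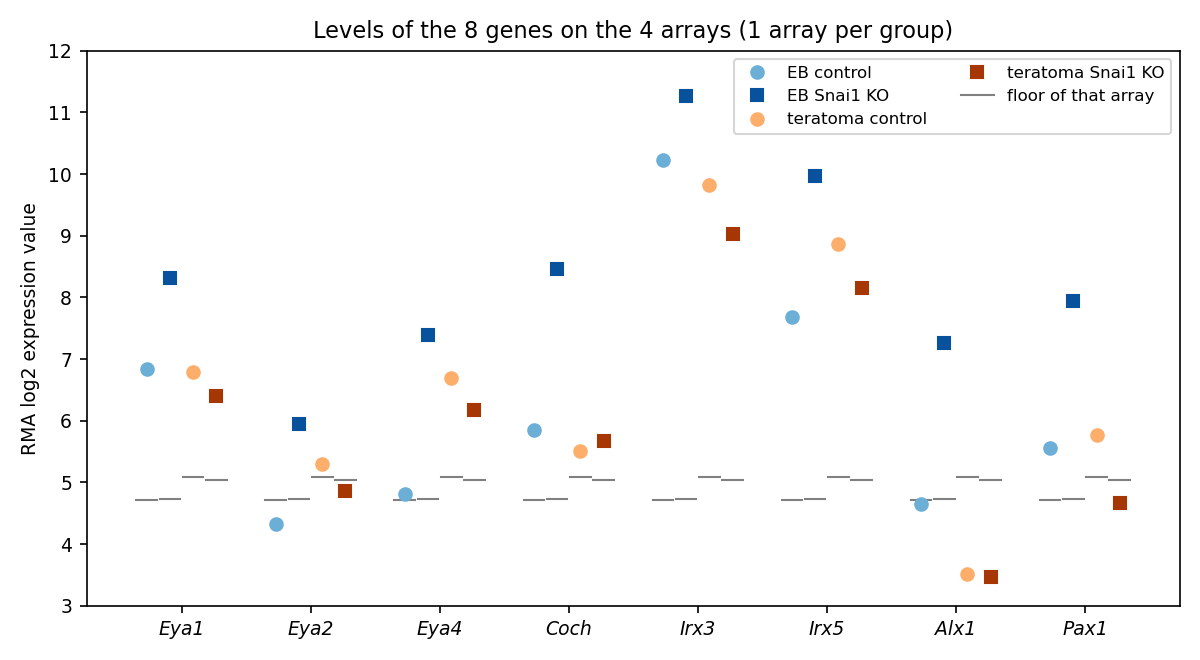
RMA log2 value (vertical axis) of each of the 8 genes (horizontal axis) on the 4 arrays, 1 point per array, with a grey tick at that array's floor. The knockout embryoid body point (dark blue square) is the highest of the 4 for every gene, which follows in part from how the genes were chosen.

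Eya1 is needed for ear, kidney and branchial arch formation. It read 6.83 in control and 8.31 in knockout embryoid bodies, and 6.79 in control and 6.41 in knockout teratomas. The knockout embryoid body array thus stood apart, while the other three lay between 6.41 and 6.83. The difference was 1.48, or 2.78-fold higher, in embryoid bodies and -0.38, or 1.30-fold lower, in teratomas. Of its other probe sets, one rose above the floor only in knockout embryoid bodies, at 5.11, a bound of 0.40, and the other lay below the floor on all 4 arrays.

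Eya2, a paralog also found in cranial placodes, has 1 probe set, which lay near the floor. It read 4.33 in control and 5.94 in knockout embryoid bodies, and 5.30 in control and 4.85 in knockout teratomas. It was above the floor on 2 arrays only, and was at least 2.35-fold higher in knockout embryoid bodies and at least 1.19-fold lower in the knockout teratoma.

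Eya4, a gene whose loss impairs hearing, read 4.80 in control and 7.40 in knockout embryoid bodies, and 6.69 in control and 6.18 in knockout teratomas. The lowest of the 4 values, in control embryoid bodies, was only just above its floor. The difference was 2.59, or 6.03-fold, in embryoid bodies and -0.51 in teratomas. A further probe set for Eya4 read 4.44, 6.41, 5.54 and 4.63 in the same order, which bounds its difference at 1.70 for embryoid bodies and at -0.50 for teratomas. Eya4's remaining probe sets lay below the floor on every array, and with all of its probe sets averaged the embryoid body difference was at least 0.58, or 1.34 with no floor.

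Coch encodes cochlin, an abundant protein of the inner ear matrix. It read 5.85 in control and 8.45 in knockout embryoid bodies, and 5.51 in control and 5.68 in knockout teratomas. Its embryoid body difference of 2.60, or 6.08-fold, was the second highest of the genes measured there. Coch was the one member that read higher in the knockout teratoma, by 0.17. That is smaller than the pooled SD of 0.28 between teratoma differences of different probe sets of the same gene. The Eya2 bound of -0.25 is smaller in size than this SD too, though Eya2 differed by -0.44 with no floor. The SD is a spread between probe sets and does not measure the spread between samples.

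Irx3 and Irx5 are neighbours in one Iroquois gene cluster with Irx6. Irx3 read 10.22 in control and 11.27 in knockout embryoid bodies, and 9.82 in control and 9.02 in knockout teratomas. Irx5 read 7.68 in control and 9.97 in knockout embryoid bodies, and 8.87 in control and 8.15 in knockout teratomas. Both genes were above the floor on every array, so none of these differences is a bound. In embryoid bodies the differences were 1.04 for Irx3 (2.06-fold) and 2.29 for Irx5 (4.90-fold), and in teratomas -0.79 and -0.71. Each gene has 1 probe set. Irx6 lay below the floor on all 4 arrays, as did Irx4, while Irx1 differed by 0.67 and Irx2 by at least 0.51 in embryoid bodies and by -0.19 and 0.01 in teratomas.

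Alx1, a homeobox gene of the frontonasal mesenchyme, was above the floor on 1 array only. It read 4.66 in control and 7.26 in knockout embryoid bodies, and 3.51 in control and 3.47 in knockout teratomas. It was at least 5.84-fold higher in knockout embryoid bodies, and no difference is given for teratomas. Its other probe set lay below the floor on every array, at 3.24 and 3.92 in control and knockout embryoid bodies.

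Pax1 read 5.56 in control and 7.94 in knockout embryoid bodies, and 5.76 in control and 4.66 in knockout teratomas. The difference was 2.38, or 5.22-fold higher, in embryoid bodies. In teratomas the knockout value fell below the floor, so Pax1 was at least 1.65-fold lower. Its other probe set was above the floor only in knockout embryoid bodies, at 4.99 against 4.29 in the control, a bound of 0.28.

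The probe sets did not all read the change equally. Before any floor, 14 of the 15 read higher in knockout embryoid bodies and 12 of the 15 read lower in the knockout teratoma. The embryoid body count follows from how the genes were chosen. Probe sets of the same gene are not independent readings, and no share over all probe sets is given here. Further, 4 of the 15 in embryoid bodies and 7 of the 15 in teratomas lay below the floor on both arrays. The exception in embryoid bodies was an Eya1 probe set below the floor, at -0.10. When the probe sets of each gene were averaged, 5 of the 8 genes were at least 2-fold higher with the floor. Eya1 differed by 0.80, and Eya4 and Alx1 by at least 0.58 and at least 0.88, because their averaged control values lay below the floor. With no floor those averages differed by 1.34 and 1.64, and 7 of the 8 genes were at least 2-fold higher.

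**Figure D2:**
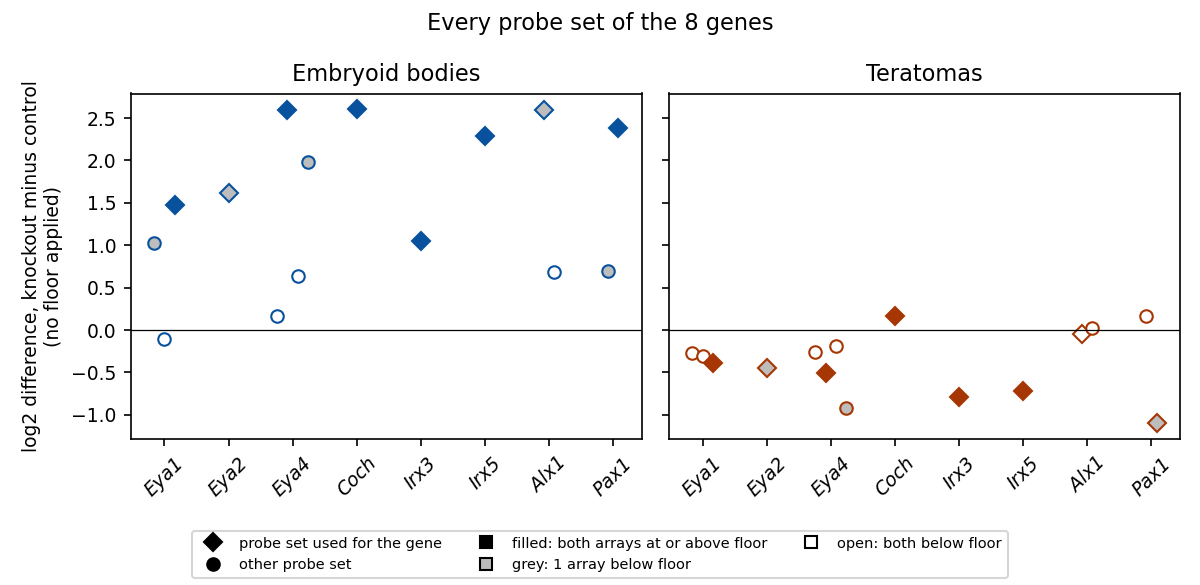
Log2 difference, knockout minus control, with no floor applied, for each probe set of the 8 genes in embryoid bodies (left) and teratomas (right). Diamonds are the probe sets used for the gene and circles the others. Filled, grey and open symbols have both, 1 and neither array at or above the floor. On the left 14 of the 15 points lie above 0, which follows from how the genes were chosen. On the right 3 of the 15 do, and 7 of the 15 lay below the floor on both arrays. Points of the same gene are not independent readings.

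The genes were selected on embryoid body values and not on the teratoma arrays. However, earlier results of these data were known when the members were chosen, so the teratoma contrast is not an independent check. Of the 7 members measured there, 6 read below 0, as did 42.0% of all 12197 measured genes and 52.3% of the 220 genes that were at least 2-fold higher in knockout embryoid bodies and measured in teratomas. Irx3, Irx5 and Pax1 were at least 1.5-fold lower, against 5.05% of all measured genes and 15.5% of those 220. Counting bounds at their bound, 0 of the 7 were at least 2-fold lower, which 1.07% of all genes and 2.27% of those 220 were, but Pax1 differed by -1.10 with no floor. Among the 7, none was at least 2-fold higher, which 3.25% were. The central 95% of all teratoma differences, with the floor applied, ran from -0.76 to 1.10, and Irx3, at -0.79, lay outside it. The Pax1 bound of -0.72 lay inside it. Its value of -1.10 with no floor is not on the same measure as this range. With 1 array per group no spread between tumours is known, and cell makeup and expression per cell cannot be told apart.

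**Figure D3:**
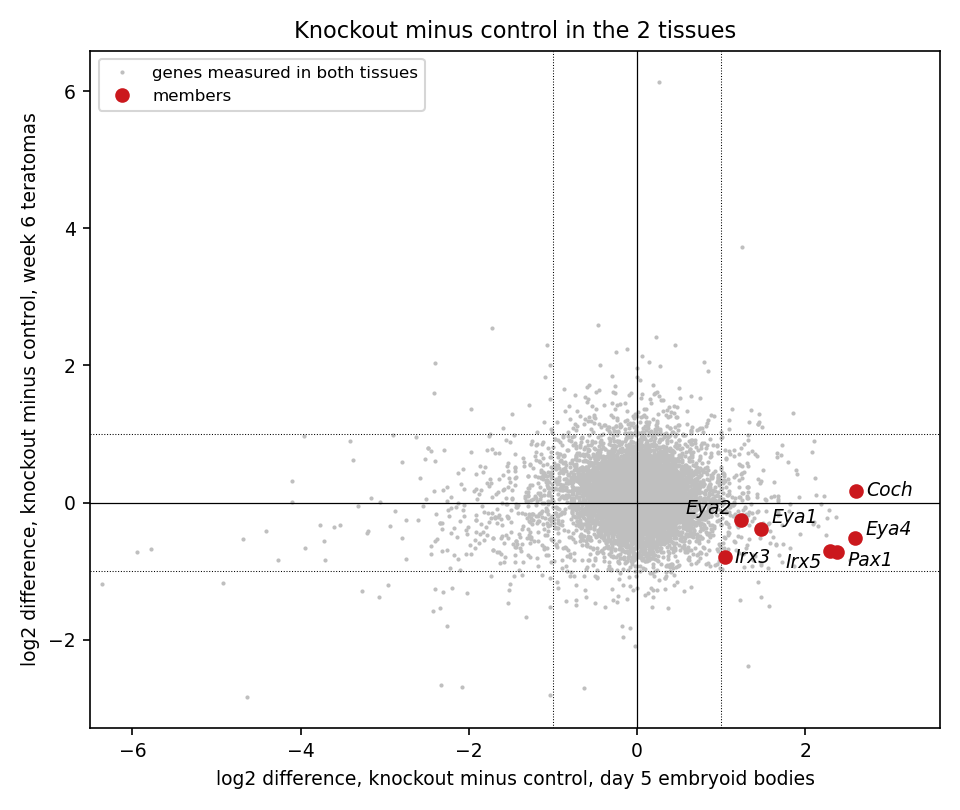
Each grey point is a gene measured in both tissues, placed by its log2 difference, knockout minus control, in embryoid bodies (horizontal axis) and teratomas (vertical axis), with dotted lines at 2-fold. The 7 measured members, in red, all lie right of 1, which follows from how the genes were chosen. Except Coch at 0.17, they lie below 0. Alx1 is not drawn because it lay below the floor in teratomas.

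Between tissues, the control arrays showed no common shift. In control cells Eya4 (1.88) and Irx5 (1.19) were at least 2-fold higher in the teratoma than in embryoid bodies, 2 of 7 measured members, beside 16.2% of all 12956 genes, and 0 were at least 2-fold lower, beside 19.0%. Eya2 was higher by at least 0.59, Pax1 differed by 0.21 and Eya1 by -0.04, and Coch and Irx3 differed by -0.34 and -0.40. The sign of Pax1 turned under median scaling and quantile scaling over all arrays. In knockout cells 7 of the 8 genes were at least 2-fold lower in the teratoma, beside 19.8% of all 12936 genes, from 2.33-fold lower for Eya4 to at least 7.44-fold lower for Pax1. Eya2 was at least 1.87-fold lower, a bound that leaves unsettled whether it passed 2-fold. That contrast shares the knockout embryoid body array with the values by which the genes were chosen, and tissue, RNA extraction method and host cells differ together in it.

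Genes with the closest pattern over the 4 arrays were sought among 13291 others, by the Euclidean distance between floored log2 values centred on each gene's mean. The nearest to Eya2 was Srgap1 (0.08), to Irx3 it was Lrig3 (0.11), to Eya1 it was Cnksr2 (0.19), and to Irx5 the claudin gene Cldn23 (0.19). Other members had no neighbour as close. The nearest to Coch was Hesx1 (0.28), a homeobox gene of the forebrain and pituitary, then Tph1 (0.37). Alx1 lay nearest to Espn (0.37) and Pax1 to Otx2 (0.39), and Otx2 was next for Alx1 (0.40). Otx2, a head homeobox gene, read 8.18 in control and 10.34 in knockout embryoid bodies, and 8.33 in control and 7.98 in knockout teratomas. Eya4 lay nearest to the troponin gene Tnnt1 (0.46), and the chemokine receptor gene Cxcr4 came next for both Eya4 (0.49) and Irx5 (0.43). With no floor, 6 of the 16 nearest genes (2 for each member) were the same, so the neighbours depend on the floor. The distances include the embryoid body values by which the members were chosen. Neighbours that read higher in knockout embryoid bodies follow in part from that choice. Among the members themselves the closest pair was Eya1 and Irx3 (0.55), and the farthest Eya4 and Irx3 (1.996).

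Other genes of the same pathways were read from lists, which were drawn up knowing earlier results of these data. Among the partners of Eya, Six4 read 5.98 and 7.80 in control and knockout embryoid bodies, a difference of 1.82, with its other probe sets between 0.55 and 0.76. It was the one gene of 5 measured in the list of Six2, Six4, Six5, Eya3, Dach1 and Dach2 to be at least 2-fold higher, and 0 were lower. Six2 differed by 0.67, Dach2 by at least 0.34, Eya3 by 0.14 and Six5 by -0.06.

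Placode regulators had 3 of 13 measured members at least 2-fold higher in knockout embryoid bodies and 2 lower (3.98% of all genes were at least 2-fold lower). Otx2 differed by 2.16, the ear and ectoderm factor Gata3 by 1.30 and Sox3 by 1.16 (other probe set 0.61 with no floor). The hindlimb and stomodeal gene Pitx1 differed by -2.11 and Msx1 was 2.83-fold lower, with another Msx1 probe set at -0.31. Pax8, Hmx3 and Neurog1, which mark otic and sensory lineages, lay below the floor on all 4 arrays, and Hmx2 was above it only in knockout embryoid bodies, at 5.02. Of 8 other inner ear matrix genes on the array, 7 were below the floor on every array, among them Oc90, Tecta and Otoa, and Otog differed by -0.08 in embryoid bodies. With 1 gene measured, the list gives no comparison with Coch.

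Head mesenchyme genes had 2 of 11 measured members at least 2-fold higher and 0 lower in embryoid bodies. These were the forkhead genes Foxc1 (2.28) and Foxc2 (1.71). Of the 11, 6 read above 0 and 5 below, with a median of 0.32. Prrx1 differed by 0.76 (other probe sets 0.18 to 0.42 with no floor) and Twist1 by 0.32. Hand2 differed by -0.67 (other probe sets -0.26 to 0.51 with no floor) and Tcf21 by -0.38. Alx4, the paralog of Alx1, lay below the floor on all 4 arrays. Pharyngeal pouch and sclerotome genes had 2 of 6 higher and 0 lower. These were Pax9, the paralog of Pax1, at 1.68 and the pharyngeal endoderm gene Nkx2-3 at 1.58 (other probe sets from 0.95 with no floor). Nkx3-2 and Meox2, sclerotome and somite genes, lay below the floor on every array.

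Markers of other cell types that the samples could hold moved in the same arrays. Axial mesendoderm genes, those of the organizer, prechordal plate and endoderm, had 4 of 7 measured members at least 2-fold higher in knockout embryoid bodies and 1 lower. Gsc was at least 4.22-fold higher, Cer1 differed by 1.65, Hhex by 1.41 and Sox17 by 1.23, while Shh differed by -1.03, although its other probe set differed by 0.13 with no floor. Of 3 measured intermediate mesoderm genes 2 were higher, Lhx1 (2.10) and Sall1 (1.32), and Gdnf differed by at least 0.37. Osr1 lay below the floor on both embryoid body arrays, and Wt1 on all 4 arrays. Of 3 measured neural crest genes 1 was higher, Erbb3 (2.31-fold), although its other probe set differed by 0.49 with no floor. Sox10 lay below the floor in both embryoid body arrays and Foxd3 was at most just above it. Surface ectoderm genes had 0 of 5 higher or lower, with a median of -0.09 (0.09 with probe sets averaged), and Trp63, their defining regulator, was below the floor in embryoid bodies. All 6 skeletal muscle genes were below the floor in embryoid bodies. The part of these cell types in the embryoid body values of the 8 genes was not tested.

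In teratomas several other developmental lists also read below 0. Of placode regulators 12 of 12 measured genes did, of head mesenchyme genes 10 of 11, of axial mesendoderm genes 6 of 6 and of surface ectoderm genes 5 of 5, with medians of -0.43, -0.58, -0.57 and -0.51. Pharyngeal pouch and sclerotome genes read below 0 for 5 of 6, genes of the list with Six4 and Dach2 for 4 of 5 and neural crest genes for 3 of 3. Iroquois paralogs were split 1 to 1, with a median of -0.09, and intermediate mesoderm genes had 2 of 3 below 0, with a median of -0.05. The lower readings were thus not particular to the 8 genes. At least 2-fold lower was Pax3 (-1.15, other probe sets down to -0.38) among placode regulators. So were Tcf21 (-1.52, other probe set -0.35) and Dlx2 (-1.02) in head mesenchyme. Sox17 (-1.42, other probe set -0.79 with no floor) was too, in axial mesendoderm. Skeletal muscle genes Myh3 and Myog differed by -2.09 and -1.37, with Myod1, Myf5, Myf6 and Pax7 below the floor in all samples. Leukocyte genes went the other way, with 4 of 5 measured genes at least 2-fold higher, led by Ms4a1, at least 7.18-fold higher, Ptprc (2.12) and Cd52 (2.01). The other Ptprc probe set differed by -0.01, and the leukocyte median difference of 2.01 became 1.04 with probe sets averaged. The median log2 value of the 6 leukocyte genes was 6.34 in the control and 8.34 in the knockout teratoma, and Cd3e lay below the floor in both. The part of leukocyte and muscle content in the lower readings of Irx3, Irx5 and Pax1 was not tested.

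**Figure D4:**
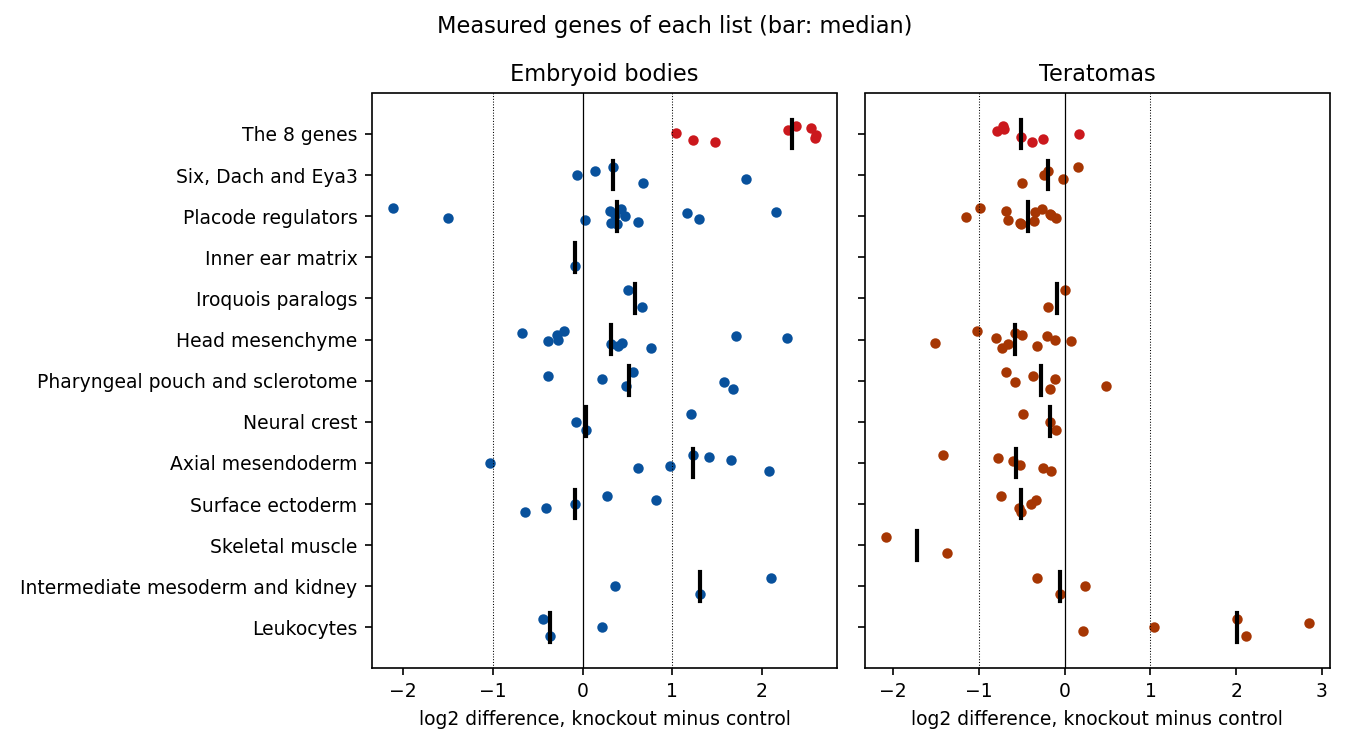
Log2 difference, knockout minus control, of each measured gene (points) and the median (black bar) of the 8 genes (red, top row) and of each other list, in embryoid bodies (left) and teratomas (right), with dotted lines at 2-fold. All 8 red points lie right of 1 on the left, which follows from how the genes were chosen. Most genes of the other lists, which were not chosen in that way, lie under 1 there. Axial mesendoderm had 4 of 7 and intermediate mesoderm 2 of 3 at least 2-fold higher. On the right the placode, axial mesendoderm and surface ectoderm points all lie below 0.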

How the data were processed

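RNA from 4 samples, 1 per group, was labelled and read on mouse Affymetrix arrays. Embryoid body RNA was column-purified and teratoma RNA was extracted with Trizol, per the labels' protocols. The authors deposited log2 values per probe set, made with affy and RMA per the submitters' processing notes; the sources used here give no versions and do not state whether all arrays were normalized together. Arrays give no read depth, and their number limits the precision.

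Of 45101 probe sets, 64 controls were left out, and 34945 of the others name 1 gene, 932 several and 9160 none in the platform annotation. Entrez numbers of 34741 matched RefSeq and 0 symbols changed. Where a gene had several probe sets, the one with the highest average across arrays was used. An array above its own floor but below the other's was given a bound of 0. No test was run, because each group has 1 array. Named were all members, Snai1, up to 4 genes per list among those past 2-fold, and the 2 nearest in pattern; other list genes were chosen after their values were seen. Members and lists were chosen with earlier results of these data known. Alternatives covered the probe set per gene, scaling, floor, fold threshold and motif. The code, run in Python 3.11.15 with pandas 2.3.3, was tested on simulated data.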

Additional observations from a re-analysis of the deposited data

Results flagged for a closer look

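Differences in opposite directions were seen for 6 of the 7 genes measured in both tissues, higher in knockout embryoid bodies and lower in the knockout teratoma. Of the 220 genes at least 2-fold higher in knockout embryoid bodies and measured in teratomas, 52.3% also read below 0 in teratomas. The embryoid body difference minus the teratoma difference was 3.10 for Pax1, 3.10 for Eya4, 3.01 for Irx5, 1.86 for Eya1, 1.84 for Irx3 and 1.49 for Eya2, in log2 units. Each value includes the embryoid body difference by which the genes were chosen, so large values follow in part from that choice. With 1 array per group this difference between tissues was not tested. The values of Pax1 and Eya2 include bounds.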

How the results depend on the processing

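No paired analysis was possible because each group has 1 array. Under the alternatives that gave a value, every embryoid body and teratoma difference of the 8 genes kept its sign. With the probe sets of each gene averaged, 5 genes were at least 2-fold higher in embryoid bodies (7 with no floor, an alternative chosen after seeing the data, since the values of Eya4 and Alx1 are bounds), 1 was higher in control teratoma than control embryoid bodies, and 4 were lower in knockout teratoma than knockout embryoid bodies, where Eya1, Eya2, Eya4 and Alx1 had bounds under 2-fold. With no floor, these 4 differed there by -1.08, -1.09, -1.07 and -2.32, each at least 2-fold lower. In the control tissue contrast, 1 was higher with median scaling and 1 with the floor at the 65th percentile. With the floor at the 25th percentile, 1 gene, Pax1 at -1.10, was at least 2-fold lower in the knockout teratoma, and 1 was lower in the control tissue contrast; with no floor both counts were also 1. At 1.5-fold, 3 genes were lower in the knockout teratoma. At 3-fold, 5 were higher in embryoid bodies and 1 in the control tissue contrast. Median scaling moved the median of all genes in the control tissue contrast from -0.18 to -0.55. The shorter E-box letters were in 51.9% of promoters. Of the 16 nearest genes, 2 for each member, 6 were the same with no floor. The teratoma medians of the placode, head mesenchyme, axial mesendoderm and surface ectoderm lists stayed below 0 under all 8 alternatives of probe set, scaling and floor. Low signal limits Eya2, Alx1 and the second probe sets of Eya1 and Pax1. It also limits Eya4 in control embryoid bodies and Pax1 in the knockout teratoma.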
